A study of Mus musculus with 6 samples.

Results

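The 40 genes described here encode the antioxidant enzymes of the cell, the enzymes that make and use glutathione, and targets of the transcription factor NRF2. They were chosen by name, as gene symbols equal to a fixed list of 40, and all 40 were among the 21989 symbols of the deposited table. The ISO group held 3 libraries of left ventricle from SPF-grade male C57BL/6 mice injected under the skin with ISO at 10 mg/kg per day for 3 weeks. The saline group held 3 libraries from mice of the same sex and strain injected under the skin with normal saline for 3 weeks. Per the labels, the first is a heart failure group and the second a sham group; ISO commonly stands for isoproterenol, which stimulates beta-adrenergic receptors. The labels name no engineered allele, age or animal for each library, so a p-value here speaks of library-to-library spread only, which may be technical.

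NRF2, encoded by Nfe2l2, is held in the cytoplasm and marked for degradation by KEAP1, a protein whose cysteines react with oxidants and electrophiles. When that reaction stops the degradation, NRF2 enters the nucleus, pairs with a small MAF protein and binds antioxidant response elements in its target genes. Those targets import cystine, build and recycle glutathione, reduce thioredoxin and detoxify electrophiles. In the heart, peroxiredoxins, glutathione peroxidases, superoxide dismutases and catalase remove the superoxide and hydrogen peroxide that come mostly from mitochondria and NADPH oxidases.

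Levels are given in FPKM, which divides the fragments of a gene by its length and by the library total, and whole reads were worked back from the values. Library totals were 7378782, 5154283 and 5614336 reads in ISO 1 to 3, against 9862363, 6307039 and 2776152 reads in saline 1 to 3. Saline 3 stood apart, with a Pearson r of 0.788 to 0.830 with the other libraries across the 12269 genes tested, while the other libraries had an r of at least 0.918 with each other. Saline 3 was the highest or lowest of the 6 libraries for 25 of the 39 tested members and for 75.2% of all genes tested. Heart muscle markers were present in every library, with Tnnt2, cardiac troponin T, at 7129, 7319 and 5878 FPKM in ISO 1 to 3, against 10434, 12161 and 11907 FPKM in saline 1 to 3. Atrial transcripts were abundant in the labelled ventricle. Myl7, the atrial light chain, was at 11550.5, 11487 and 8354 FPKM in ISO 1 to 3, against 16664, 16049 and 7469 FPKM in saline 1 to 3. Myl2, the ventricular light chain, was at 1985, 1962 and 140.4 FPKM in ISO 1 to 3, against 2566, 526 and 9101 FPKM in saline 1 to 3. Myl7 was thus above Myl2 in every library except saline 3. The part of chamber make-up in the member values, those of saline 3 included, was not tested. In a bulk sample, fewer cells of a type and less RNA per cell cannot be told apart.

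No member passed the test. Of the 40 members, 39 had a mean of at least 1 FPKM and entered the fit of log2(FPKM + 1) over all genes with limma, and 0 had an adjusted p under 0.05, where 0% of all genes were called. Their adjusted p lay between 0.699 and 0.915. At an unadjusted p under 0.05, limma had 3 members higher in ISO (Aldh3a1, Gclm and Gsr), where 4.92% of all genes were higher, and 2 members lower (Txn2 and Mgst3), where 1.39% of all genes were lower. Together they are 12.8% of the members tested, against 6.31% of all genes. Every ISO library lay above every saline library for 3 members (Aldh3a1, Gsr and Nfe2l2), 7.69% of those tested, against 12.8% of all genes. Every ISO library lay below every saline library for 3 members (Txn2, Gstm1 and Prdx2), again 7.69%, against 3.72% of all genes. The log2 fold change, ISO minus saline, was above 0 for 23 members and below 0 for 16, with a median of 0.13, beside a median of 0.20 over all genes and 68.1% of all genes above 0. After median-of-ratios scaling, which moved the median of all genes to 0.021, the median of the members was -0.080. Under that scaling 3 members lay higher in every ISO library, where 7.48% of all genes did, and 6 lay lower, where 7.29% of all genes did. With sample quality weights limma called 5 members (Aldh3a1 and Gpx1 higher, Txn2, Mgst3 and Mt1 lower), against 6.26% of all genes. Without saline 3, 7 members lay higher and 4 lower in every ISO library, beside 2250 and 1179 of the 12269 genes, and the medians were 0.13 for members and 0.063 for all genes.

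**Figure D1:**
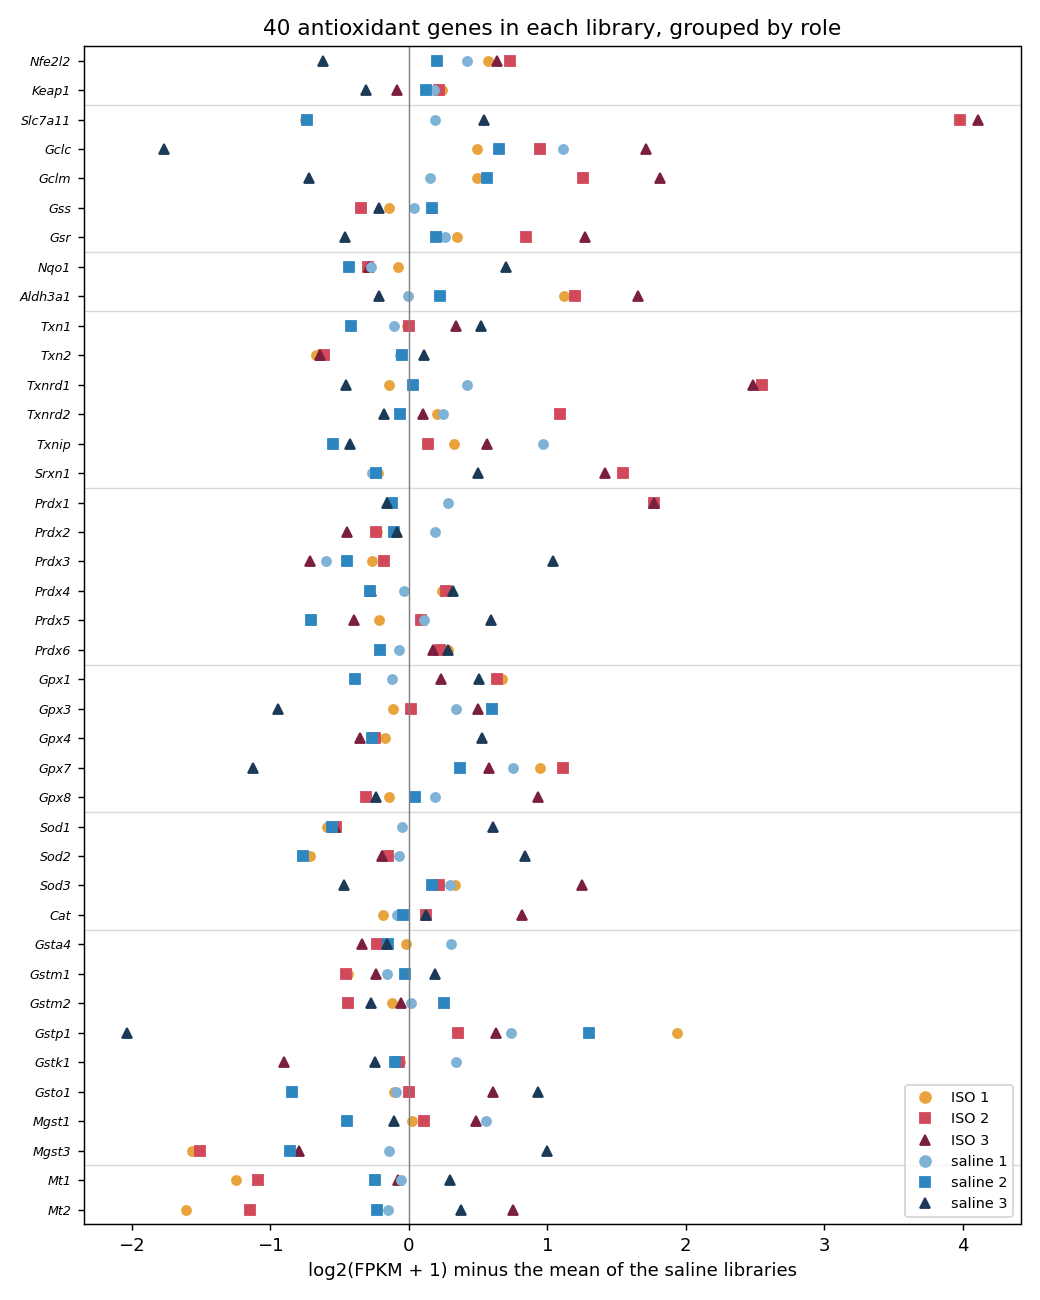
Each row is a member and each point a library; the horizontal axis gives log2(FPKM + 1) minus the mean of the 3 saline libraries, and grey lines part the roles. ISO 2 and ISO 3 lie far to the right of the other 4 libraries for Slc7a11, Txnrd1, Srxn1 and Prdx1, and saline 3 lies at an end of many rows.

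Slc7a11, Txnrd1, Srxn1 and Prdx1, all known NRF2 targets, were several-fold higher in ISO 2 and ISO 3 than in ISO 1, which lay within or below the saline range. Slc7a11 (chr3:50364936-50499087; positions are RefSeq's on GRCm38) encodes the transporter that brings in cystine, the raw material of glutathione, in exchange for glutamate. It was at 0.0850, 27.8 and 30.5 FPKM in ISO 1 to 3, against 1.08, 0.0994 and 1.66 FPKM in saline 1 to 3. ISO 1 was the lowest of all 6 libraries, and ISO 2 and ISO 3 were 16.8 and 18.4 times the highest saline value. Those values rest on 6, 1372 and 1638 reads in ISO 1 to 3, against 102, 6 and 44 reads in saline 1 to 3. Exact Poisson intervals (95%, counting error only) ran from 0.0312 to 0.185 FPKM for ISO 1, from 26.4 to 29.3 FPKM for ISO 2 and from 29.0 to 32.0 FPKM for ISO 3.

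Txnrd1 (chr10:82833951-82897724), the selenoenzyme that reduces cytosolic thioredoxin with NADPH, was at 12.2, 84.6 and 80.9 FPKM in ISO 1 to 3, against 18.5, 13.9 and 9.68 FPKM in saline 1 to 3. ISO 2 and ISO 3 were 4.56 and 4.36 times the highest saline value, and ISO 1 lay within the saline range. Srxn1 (chr2:152105524-152111376), sulfiredoxin, repairs peroxiredoxins that hydrogen peroxide has over-oxidized. It was at 19.5, 68.9 and 62.8 FPKM in ISO 1 to 3, against 18.9, 19.3 and 32.8 FPKM in saline 1 to 3. Prdx1 (chr4:116685599-116700000), an abundant cytosolic peroxiredoxin that removes hydrogen peroxide at the expense of thioredoxin, was at 124, 468 and 468 FPKM in ISO 1 to 3, against 166, 125 and 122 FPKM in saline 1 to 3. For both genes ISO 2 and ISO 3 were close together and above every other library, and ISO 1 was within the saline range. Prdx1 had 1296, 3417 and 3727 reads in ISO 1 to 3, against 2320, 1120 and 480 reads in saline 1 to 3.

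As groups, ISO and saline overlapped for all 4 genes through ISO 1. The log2 fold change was 2.45 (SE 1.25) for Slc7a11, 1.63 (SE 0.72) for Txnrd1, 0.91 (SE 0.50) for Srxn1 and 1.14 (SE 0.52) for Prdx1, each with an adjusted p = 0.699 (limma). Without ISO 1 these were 4.05, 2.52, 1.48 and 1.77, and without ISO 2 they were 1.68, 1.17, 0.60 and 0.82. Without ISO 3 they were 1.62, 1.20, 0.66 and 0.82. All 4 stayed above 0 without any 1 of the saline libraries and under each scaling tried. Between ISO 1 and ISO 2, 5 members differed by more than 2-fold on the log2(FPKM + 1) scale, these 4 and Gstp1. That is 12.8% of the members tested against 3.05% of all genes. A higher share of members was not particular to this pair. Between ISO 1 and saline 1 it was 12.8% against 3.87%, with none of these 4 genes among the members. The share of members was below that of all genes between saline 3 and each of ISO 1, ISO 3, saline 1 and saline 2. The 8 macrophage markers, all detected in every library, had a sum of 911, 1792 and 1644 FPKM in ISO 1 to 3, against 413, 583 and 730.2 FPKM in saline 1 to 3, of which Lyz2 made the largest share. ISO 2 and ISO 3 were above the other libraries for 5 of the 8 (Adgre1, Csf1r, Cd68, C1qb and Lyz2) and not for C1qa, Cd163 and Fcgr1. The same held for 4 of 8 fibroblast and 4 of 10 erythroid markers. The share of all genes with this order of libraries is not given here. The part of these markers in the values of the 4 genes was not tested. The 10 cardiomyocyte markers came to 22034, 21455 and 12858 FPKM in ISO 1 to 3, against 32419, 30328 and 47151 FPKM in saline 1 to 3, and the 6 adipocyte markers to 189.8, 195 and 1604 FPKM in ISO 1 to 3, against 505, 535 and 328 FPKM in saline 1 to 3.

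**Figure D2:**
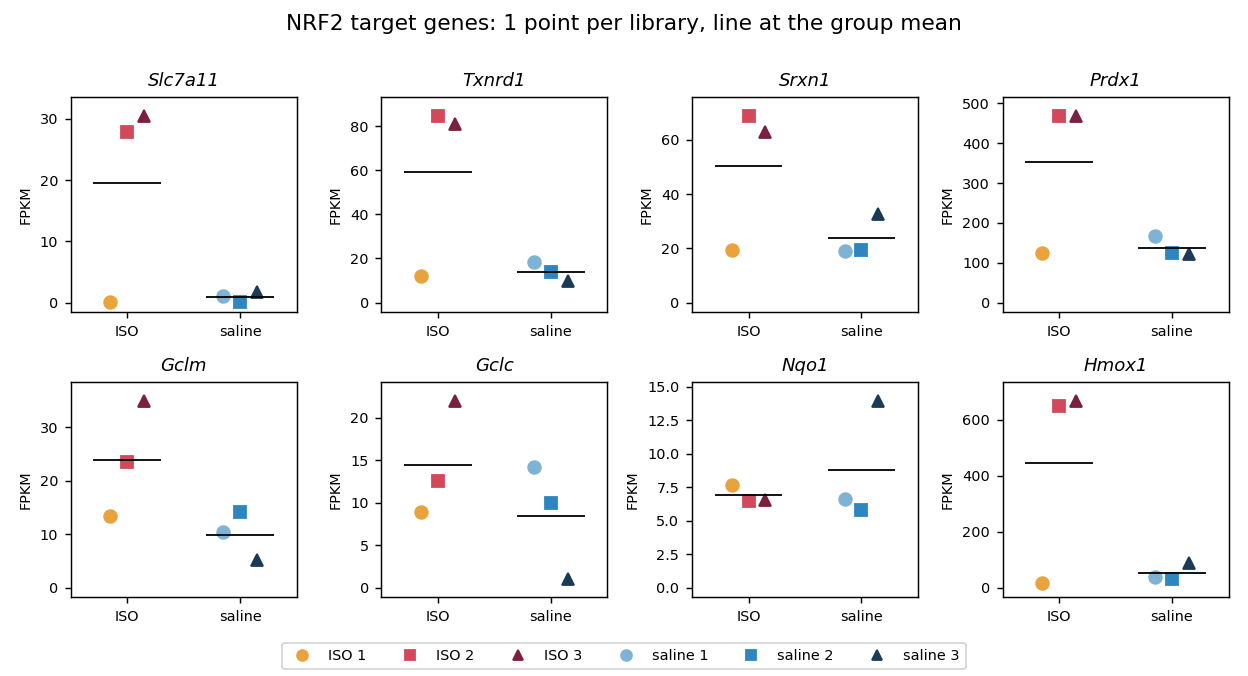
Each panel gives FPKM of 1 gene on a linear axis, with 1 point per library, ISO at the left and saline at the right, and a line at the group mean. Slc7a11, Txnrd1, Srxn1, Prdx1 and Hmox1 are high in ISO 2 and ISO 3 and low in ISO 1, while Nqo1 stays between 5.82 and 13.9 FPKM in all libraries.

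Counted library by library, 6 members in ISO 3, 5 in ISO 2 and 1 in ISO 1 lay at least 2-fold above the highest saline value. That is 15.4%, 12.8% and 2.56% of the members tested, against 4.69%, 2.54% and 0.766% of all genes tested. The single member in ISO 1 was Aldh3a1. Those in ISO 2 were Slc7a11, Aldh3a1, Txnrd1, Srxn1 and Prdx1. In ISO 3, Gclm and Gsr joined Slc7a11, Aldh3a1, Txnrd1 and Prdx1, and Srxn1 was at 1.91 times the highest saline value. At 4-fold the members were 2 in ISO 3, 2 in ISO 2 and 0 in ISO 1, against 1.25%, 0.921% and 0.0571% of all genes, and the 2 were Slc7a11 and Txnrd1 in both. Above the highest saline value by any amount lay 13, 11 and 9 members in ISO 3, ISO 2 and ISO 1, or 33.3%, 28.2% and 23.1%, against 39.6%, 28.7% and 30.8% of all genes. Below the lowest saline value lay 7, 10 and 9, or 17.9%, 25.6% and 23.1%, against 14.4%, 14.1% and 12.2%. The 3 ISO libraries are set against the same saline values, so their counts are not independent.

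Promoter windows of the 4 genes are printed because these members were high in the same libraries. Each window is RefSeq sequence of GRCm38.p6, from 250 bases before to 50 after an annotated start. Capitals mark the core of the antioxidant response element, TGACNNNGC, and the AP-1 type site TGAGTCA, searched on both strands.

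Slc7a11: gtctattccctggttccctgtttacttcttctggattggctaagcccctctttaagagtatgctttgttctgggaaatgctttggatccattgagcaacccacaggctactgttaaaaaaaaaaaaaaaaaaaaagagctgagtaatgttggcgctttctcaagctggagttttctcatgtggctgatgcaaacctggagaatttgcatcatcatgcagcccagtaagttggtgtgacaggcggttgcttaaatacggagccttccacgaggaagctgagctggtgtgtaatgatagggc
Txnrd1: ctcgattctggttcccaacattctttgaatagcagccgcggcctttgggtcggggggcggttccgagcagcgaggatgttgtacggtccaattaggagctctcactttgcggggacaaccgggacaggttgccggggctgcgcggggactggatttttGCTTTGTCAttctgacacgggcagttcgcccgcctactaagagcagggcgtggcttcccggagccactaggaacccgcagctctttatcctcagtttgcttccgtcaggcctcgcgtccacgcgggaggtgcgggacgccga
Srxn1: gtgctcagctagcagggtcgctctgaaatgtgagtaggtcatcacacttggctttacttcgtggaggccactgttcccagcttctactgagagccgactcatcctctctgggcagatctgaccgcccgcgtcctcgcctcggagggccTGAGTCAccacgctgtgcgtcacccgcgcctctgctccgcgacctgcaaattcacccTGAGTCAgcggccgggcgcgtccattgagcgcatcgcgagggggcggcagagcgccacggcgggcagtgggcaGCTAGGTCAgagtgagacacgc
Prdx1: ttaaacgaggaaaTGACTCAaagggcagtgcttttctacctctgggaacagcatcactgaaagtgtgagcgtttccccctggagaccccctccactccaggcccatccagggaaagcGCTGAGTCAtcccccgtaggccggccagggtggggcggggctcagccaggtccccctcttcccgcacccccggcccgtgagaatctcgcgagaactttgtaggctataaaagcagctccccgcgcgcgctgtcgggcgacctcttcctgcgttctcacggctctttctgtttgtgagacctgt

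They lie at chr3:50443564-50443863, minus strand (Slc7a11), at chr10:82858956-82859255, plus strand (Txnrd1, the 1 of its 3 windows that holds a match), at chr2:152105274-152105573, plus strand (Srxn1) and at chr4:116685349-116685648, plus strand (Prdx1). The response element core was found at bases 159 to 167 of the Txnrd1 window, 279 to 287 of the Srxn1 window and 118 to 126 of the Prdx1 window. In Prdx1 it overlaps an AP-1 type match at bases 120 to 126, with another at bases 14 to 20, and in Srxn1 the 2 AP-1 type matches, at bases 149 to 155 and 206 to 212, lie apart from it. The Slc7a11 window holds neither set of letters. Windows were in the RefSeq table for 34 of the 40 members. The core stood in 8 of their 41 windows (19.5%) and in 12.4% of all 32851 windows, and TGAGTCA in 4 of the 41 (9.76%) and in 5.20% of all. The 8 are in Gclm, Mgst1, Mt2, Nfe2l2, Prdx1, Sod1, Srxn1 and Txnrd1. A match describes the letters only.

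Nfe2l2 itself was higher in every ISO library. The gene (chr2:75675513-75704663) was at 35.3, 39.6 and 37.1 FPKM in ISO 1 to 3, against 31.7, 27.2 and 14.9 FPKM in saline 1 to 3, or 37.3 ± 2.14 FPKM in ISO and 24.6 ± 8.68 FPKM in saline (SD, n = 3 each). The groups did not overlap, and ISO 1, low for the targets above, was close to ISO 2 and ISO 3. With limma the difference of 0.65 (SE 0.31) on the log2 scale had an adjusted p = 0.699, and it was 0.34 without saline 3, the lowest library. Keap1 (chr9:21229730-21239332), the inhibitor of NRF2, was at 22.1, 21.8 and 17.5 FPKM in ISO 1 to 3, against 21.3, 20.4 and 14.8 FPKM in saline 1 to 3, and the groups overlapped. Its log2 fold change of 0.12 (SE 0.24) turned to -0.031 without saline 3, to -0.056 with quantile normalization and to -0.080 after median-of-ratios scaling.

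Of the 5 members for cystine import, glutathione synthesis and recycling, 4 had a fold change above 0, where 68.1% of all genes did. Slc7a11, given above, had the largest. Gclc (chr9:77754535-77794489), the catalytic subunit of glutamate-cysteine ligase, the limiting enzyme of glutathione synthesis, was at 8.87, 12.5 and 22.0 FPKM in ISO 1 to 3, against 14.2, 9.99 and 1.06 FPKM in saline 1 to 3. Saline 3 was far below the rest, on 11 reads, and the other 5 libraries overlapped. Its log2 fold change of 1.05 (SE 0.75) was 0.17 without saline 3 and -0.051 with quality weights. Gclm (chr3:122245487-122267215), the modifier subunit of the same ligase, was at 13.3, 23.4 and 34.9 FPKM in ISO 1 to 3, against 10.4, 14.1 and 5.22 FPKM in saline 1 to 3. ISO 2 and ISO 3 lay above every saline library and ISO 1 just below saline 2, and the saline 3 value rested on 15 reads. Its log2 fold change was 1.19 (SE 0.45), 0.83 without saline 3 and 1.53 without ISO 1.

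Gsr (chr8:33653238-33698162), glutathione reductase, returns oxidized glutathione to its reduced form. It was at 8.27, 12.1 and 16.7 FPKM in ISO 1 to 3, against 7.74, 7.36 and 4.31 FPKM in saline 1 to 3, with no overlap of the groups and a log2 fold change of 0.82 (SE 0.34) (limma, adjusted p = 0.699). ISO 1 and saline 1 were the nearest libraries, and without ISO 3 the log2 fold change was 0.60. Gss, which joins glycine in the last step of synthesis, was at 10.2 ± 2.02 FPKM in ISO and 11.0 ± 1.58 FPKM in saline, a log2 fold change of -0.11 (SE 0.25) that turned to 0.012 without ISO 2.

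Aldh3a1 had the smallest p of the members. This aldehyde dehydrogenase (chr11:61208510-61218418) oxidizes aldehydes formed by lipid peroxidation and is an NRF2 target in some tissues. It was at 7.47, 7.94 and 11.3 FPKM in ISO 1 to 3, against 2.88, 3.55 and 2.36 FPKM in saline 1 to 3, so every ISO library was at least 2.11 times the highest saline library. The reads behind these values were few, 101, 75 and 116 reads in ISO 1 to 3, against 52, 41 and 12 reads in saline 1 to 3. The log2 fold change of 1.32 (SE 0.27) had an unadjusted p of 0.00157 and an adjusted p = 0.699 with limma, and lay between 1.16 and 1.44 with any 1 library left out. Nqo1 (chr8:107388225-107403205), a quinone reductase often used as the readout of NRF2, was at 7.68, 6.50 and 6.54 FPKM in ISO 1 to 3, against 6.60, 5.82 and 13.9 FPKM in saline 1 to 3. Apart from saline 3, the libraries were within 5.82 and 7.68 FPKM, on 52 to 101 reads. The log2 fold change of -0.22 (SE 0.34) turned to 0.13 without saline 3 and to 0.048 with quality weights.

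In the thioredoxin system, Txn2 was the one tested member with a fold change below 0. Txn2 (chr15:77915051-77928994), mitochondrial thioredoxin, was at 109, 114 and 111 FPKM in ISO 1 to 3, against 166, 168 and 187 FPKM in saline 1 to 3. The groups were far apart next to the spread inside them, with 111 ± 2.32 FPKM in ISO and 174 ± 11.5 FPKM in saline (SD, n = 3 each). The log2 fold change of -0.64 (SE 0.20) had an unadjusted p of 0.0135 and an adjusted p = 0.699 with limma, and lay between -0.67 and -0.59 with any 1 library left out. The summed cardiomyocyte markers, given above, were also lower in every ISO library, with a median log2 fold change of -0.79 over the 10 markers. Taken singly, 4 of the 10 (Myh6, Tnnt2, Tnni3 and Tnnc1) were lower in every ISO library. Actc1, Myl2, Myl3, Ryr2, Pln and Ttn overlapped between groups. The part of these markers in the value of Txn2 was not tested. Txn1, cytosolic thioredoxin, was at 90.6 ± 13.3 FPKM in ISO and 86.6 ± 29.9 FPKM in saline. Its log2 fold change of 0.11 (SE 0.29) turned to -0.098 without saline 2, to -0.0069 without ISO 3 and to -0.10 after median-of-ratios scaling. Txnip, which binds and inhibits thioredoxin, was at 185, 163 and 219 FPKM in ISO 1 to 3, against 290.4, 101 and 109.8 FPKM in saline 1 to 3, with saline 1 the highest and the other saline libraries the lowest. Its log2 fold change of 0.34 (SE 0.42) turned to -0.36 with quality weights. Txnrd2, the mitochondrial reductase, had a mean under 1 FPKM and was not tested. It was at 0.472, 1.72 and 0.372 FPKM in ISO 1 to 3, against 0.512, 0.221 and 0.125 FPKM in saline 1 to 3, on 2 to 51 reads.

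**Figure D3:**
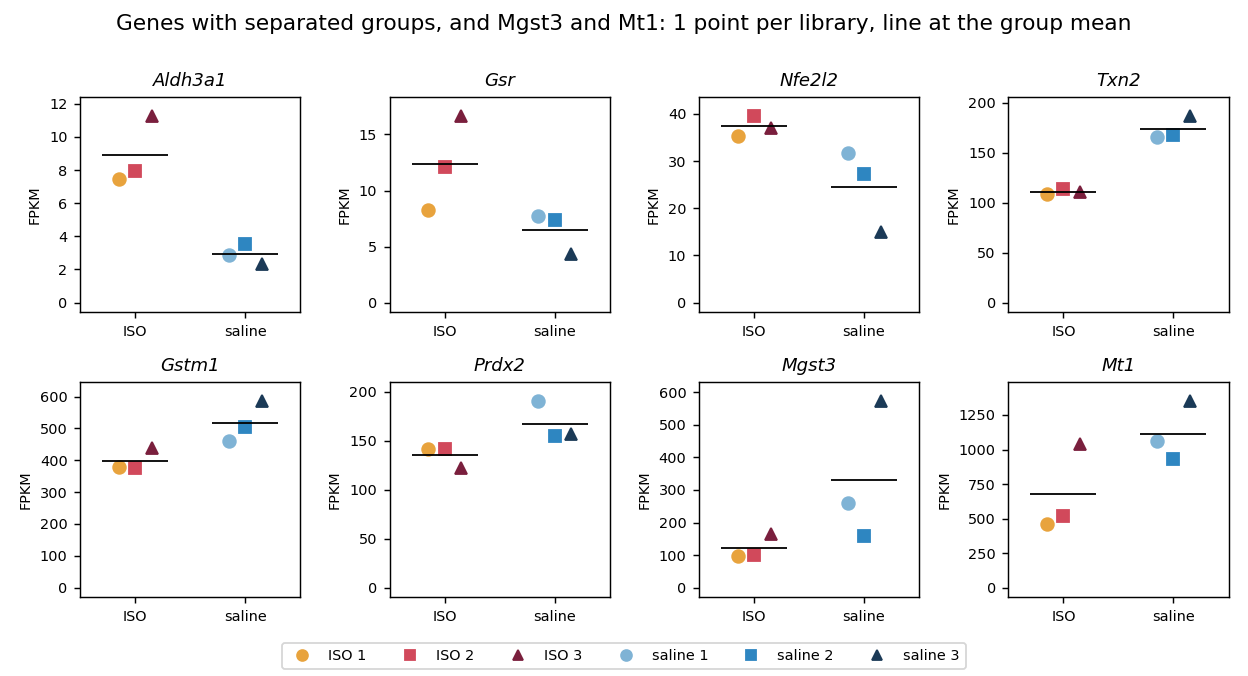
Each panel gives FPKM of 1 gene, with 1 point per library, ISO at the left and saline at the right, and a line at the group mean. Aldh3a1, Gsr and Nfe2l2 are higher in every ISO library and Txn2, Gstm1 and Prdx2 lower, while Mgst3 and Mt1 overlap through ISO 3 and saline 2.

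Among the other peroxiredoxins, Prdx2 was the one whose groups did not overlap. Prdx2 (chr8:84969622-84974811), a cytosolic peroxiredoxin that is also abundant in red blood cells, was at 142, 141 and 122 FPKM in ISO 1 to 3, against 191, 155 and 157 FPKM in saline 1 to 3. Every ISO library was below every saline library, with a log2 fold change of -0.30 (SE 0.21). The 10 erythroid markers had a sum of 14111, 14598 and 29639 FPKM in ISO 1 to 3, against 6713, 3776 and 3257 FPKM in saline 1 to 3, with 8 of the 10 higher in every ISO library, Slc4a1 overlapping and Epb42 at or near 0 in all libraries, and their part in the value of Prdx2 was not tested. Prdx3, the mitochondrial peroxiredoxin, was at 49.3, 52.2 and 35.7 FPKM in ISO 1 to 3, against 38.9, 43.2 and 123 FPKM in saline 1 to 3, where saline 3 stood far above the rest, and its log2 fold change of -0.39 (SE 0.45) turned to 0.14 without saline 3 and to 0.30 with quality weights. Prdx5, found in mitochondria, peroxisomes and the cytosol, was at 345, 426 and 305 FPKM in ISO 1 to 3, against 434, 245 and 607 FPKM in saline 1 to 3. Its fold change of -0.17 (SE 0.36) on the log2 scale turned to 0.12 without saline 3, to 0.069 with quantile normalization and to 0.075 with sample quality weights. Prdx6, which uses glutathione in place of thioredoxin, was at 55.5, 53.2 and 51.5 FPKM in ISO 1 to 3, against 43.2, 39.2 and 55.4 FPKM in saline 1 to 3, a log2 fold change of 0.23 (SE 0.22). Prdx4, of the endoplasmic reticulum, had a log2 fold change of 0.08 (SE 0.27) that turned to -0.12 after median-of-ratios scaling and to -0.087 with quantile normalization.

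Glutathione peroxidases reduce hydrogen peroxide and lipid hydroperoxides with glutathione, and 3 of the 5 measured here are selenoproteins in the mouse. Gpx3 (chr11:54902854-54910387), the secreted plasma peroxidase, had the highest mean of all members, at 2483, 2723 and 3808 FPKM in ISO 1 to 3, against 3412, 4074 and 1399.8 FPKM in saline 1 to 3. The groups overlapped, and the log2 fold change of 0.13 (SE 0.45) was -0.34 without saline 3, -0.080 after median-of-ratios scaling and -0.36 with quality weights. Gpx1 (chr9:108339080-108340342), the main cytosolic peroxidase, was at 251, 246 and 186 FPKM in ISO 1 to 3, against 145, 120.5 and 224 FPKM in saline 1 to 3. Only saline 3 reached the ISO range. On the log2 scale the difference of 0.51 (SE 0.30) was 0.77 without saline 3 and 0.32 without saline 2. Gpx1 is abundant in red blood cells, whose summed markers were higher in every ISO library as given above, and their part in this value was not tested. Gpx4 (chr10:80047166-80056439), which protects membranes from lipid peroxidation and ferroptosis, was at 269, 255 and 237 FPKM in ISO 1 to 3, against 252, 252 and 439 FPKM in saline 1 to 3. Apart from saline 3, all libraries were between 237 and 269 FPKM, and the log2 fold change of -0.26 (SE 0.28) was 0.0074 without it and 0.013 with quality weights.

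Gpx7 and Gpx8 are peroxidases of the endoplasmic reticulum that carry a cysteine in place of selenocysteine. Gpx7 was at 29.5, 33.2 and 22.6 FPKM in ISO 1 to 3, against 25.6, 19.5 and 6.23 FPKM in saline 1 to 3, with a log2 fold change of 0.88 (SE 0.49) that was 0.32 without saline 3. Gpx8 was at 54.1, 48.2 and 116 FPKM in ISO 1 to 3, against 68.4, 62.0 and 50.9 FPKM in saline 1 to 3. ISO 3 was the highest and ISO 1 and ISO 2 lay within or below the saline range, and the log2 fold change of 0.16 (SE 0.36) was -0.23 without ISO 3, -0.051 after median-of-ratios scaling and -0.34 with quality weights.

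Superoxide dismutases turn superoxide into hydrogen peroxide, which catalase splits. Sod1 (chr16:90220762-90226333), the cytosolic copper and zinc enzyme, was at 459, 481 and 478 FPKM in ISO 1 to 3, against 666, 470.3 and 1052 FPKM in saline 1 to 3. The ISO libraries were close together and saline 2 lay among them. Its difference of -0.55 (SE 0.32) on the log2 scale was -0.24 without saline 3 and -0.82 without saline 2. Sod2 (chr17:13007839-13018119), the mitochondrial manganese enzyme, was at 39.9, 59.5 and 57.6 FPKM in ISO 1 to 3, against 62.8, 38.5 and 119 FPKM in saline 1 to 3, and its log2 fold change of -0.35 (SE 0.42) turned to 0.066 without saline 3. Sod3 (chr5:52363804-52369738), the secreted enzyme of the matrix, was at 60.6, 56.0 and 115 FPKM in ISO 1 to 3, against 59.2, 53.9 and 34.3 FPKM in saline 1 to 3. ISO 3 was the highest, and the log2 fold change of 0.60 (SE 0.36) was 0.28 without ISO 3. Cat (chr2:103453904-103485153), catalase, was at 45.4, 56.3 and 91.7 FPKM in ISO 1 to 3, against 48.6, 50.2 and 56.5 FPKM in saline 1 to 3. ISO 3 again stood above the rest, and the log2 fold change of 0.25 (SE 0.30) turned to -0.030 without ISO 3. ISO 3 also had the highest sum of adipocyte markers, given above, of which Cfd made the largest share, at 1264 FPKM. Adipoq, Plin1, Cfd, Lep and Cidec were highest in ISO 3, while Ucp1 was highest in saline 3. The part of these markers in the ISO 3 values was not tested.

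Glutathione transferases couple glutathione to electrophiles, and 5 of the 8 had a fold change below 0, where 68.1% of all genes were above 0. Gstm1 (chr3:108012250-108017973), the most abundant of them here, was at 380.0, 376 and 437 FPKM in ISO 1 to 3, against 461, 504 and 586 FPKM in saline 1 to 3. Every ISO library was below every saline library, with a log2 fold change of -0.37 (SE 0.22). Mgst3 (chr1:167371966-167393841), a membrane enzyme of the microsomal family, was at 96.0, 100.2 and 165 FPKM in ISO 1 to 3, against 259, 158 and 573 FPKM in saline 1 to 3. ISO 1 and ISO 2 were below every saline library, while ISO 3 was just above saline 2. Mgst3 had a log2 fold change of -1.29 (SE 0.48), with an unadjusted p of 0.0320 and an adjusted p = 0.699 by limma, and of -0.79 without saline 3, the highest library. Gstp1 (chr19:4035411-4037912) was at 67.9, 22.0 and 26.9 FPKM in ISO 1 to 3, against 29.0, 43.4 and 3.39 FPKM in saline 1 to 3, on 14 reads in saline 3. ISO 1 was the highest library, and the log2 fold change of 0.97 (SE 0.87) turned to -0.045 without saline 3 and to -0.11 with quality weights. Gstp1, Gstm1 and Gstm2 have closely related neighbours, so how the counting shared reads with those copies is uncertain.

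Gsto1 (chr19:47854973-47864790), an omega class enzyme, was at 30.7, 33.1 and 50.9 FPKM in ISO 1 to 3, against 31.0, 18.0 and 64.2 FPKM in saline 1 to 3, with overlapping groups, and its log2 fold change of 0.17 (SE 0.46) turned to -0.25 without saline 2, to -0.053 without ISO 3 and to -0.044 after median-of-ratios scaling. The remaining transferases overlapped between groups. Gsta4, which clears 4-hydroxynonenal, had a log2 fold change of -0.19 (SE 0.23), Gstm2 of -0.20 (SE 0.24) and Gstk1, a mitochondrial and peroxisomal enzyme, of -0.34 (SE 0.31). Mgst1, a microsomal enzyme, had 0.21 (SE 0.31), which was -0.017 without saline 2, -0.0044 after median-of-ratios scaling and -0.18 with quality weights.

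Metallothioneins are small cysteine-rich proteins that bind zinc and copper and are induced by metals, glucocorticoids and oxidants. Mt1 (chr8:94178883-94180327) was at 464, 519 and 1043 FPKM in ISO 1 to 3, against 1062, 932 and 1352 FPKM in saline 1 to 3. ISO 1 and ISO 2 were below every saline library, and ISO 3 was within the saline range. Its log2 fold change was -0.80 (SE 0.36), and -1.17 without ISO 3. Mt2 (chr8:94172618-94173567), its neighbour on chromosome 8, was at 138, 191 and 717 FPKM in ISO 1 to 3, against 382, 362 and 552 FPKM in saline 1 to 3. ISO 1 and ISO 2 were again the lowest, and ISO 3 was the highest of all libraries. It had a log2 fold change of -0.67 (SE 0.59), -1.38 without ISO 3 and -0.20 without ISO 1.

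Promoter windows of both metallothionein genes are printed because ISO 1 and ISO 2 were below every saline library for both genes. Capitals mark the metal response element core, TGCACNC or TGCGCNC on either strand, to which the zinc sensor MTF1 is known to bind.

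Mt1: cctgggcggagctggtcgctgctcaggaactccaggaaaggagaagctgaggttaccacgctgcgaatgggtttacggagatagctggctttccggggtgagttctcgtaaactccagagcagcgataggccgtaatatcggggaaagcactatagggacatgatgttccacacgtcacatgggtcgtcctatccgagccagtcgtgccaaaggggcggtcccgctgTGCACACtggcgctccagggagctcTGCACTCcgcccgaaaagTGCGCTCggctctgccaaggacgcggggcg
Mt2: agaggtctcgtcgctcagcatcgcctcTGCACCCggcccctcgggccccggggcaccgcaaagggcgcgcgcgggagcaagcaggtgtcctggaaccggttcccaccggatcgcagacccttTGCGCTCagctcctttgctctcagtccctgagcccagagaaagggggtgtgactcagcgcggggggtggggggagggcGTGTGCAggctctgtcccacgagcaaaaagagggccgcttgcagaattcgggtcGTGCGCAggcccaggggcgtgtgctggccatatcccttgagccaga

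They are RefSeq windows of GRCm38.p6 at chr8:94178839-94179138, plus strand (Mt1), and at chr8:94172368-94172667, plus strand (Mt2). The Mt1 window holds 3 matches and the Mt2 window 4, none of which overlap. TGCACNC stood in 5 of the 41 member windows (12.2%) and in 12.6% of all windows, and TGCGCNC in 9 of the 41 (22.0%) and in 15.4% of all.

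**Figure D4:**
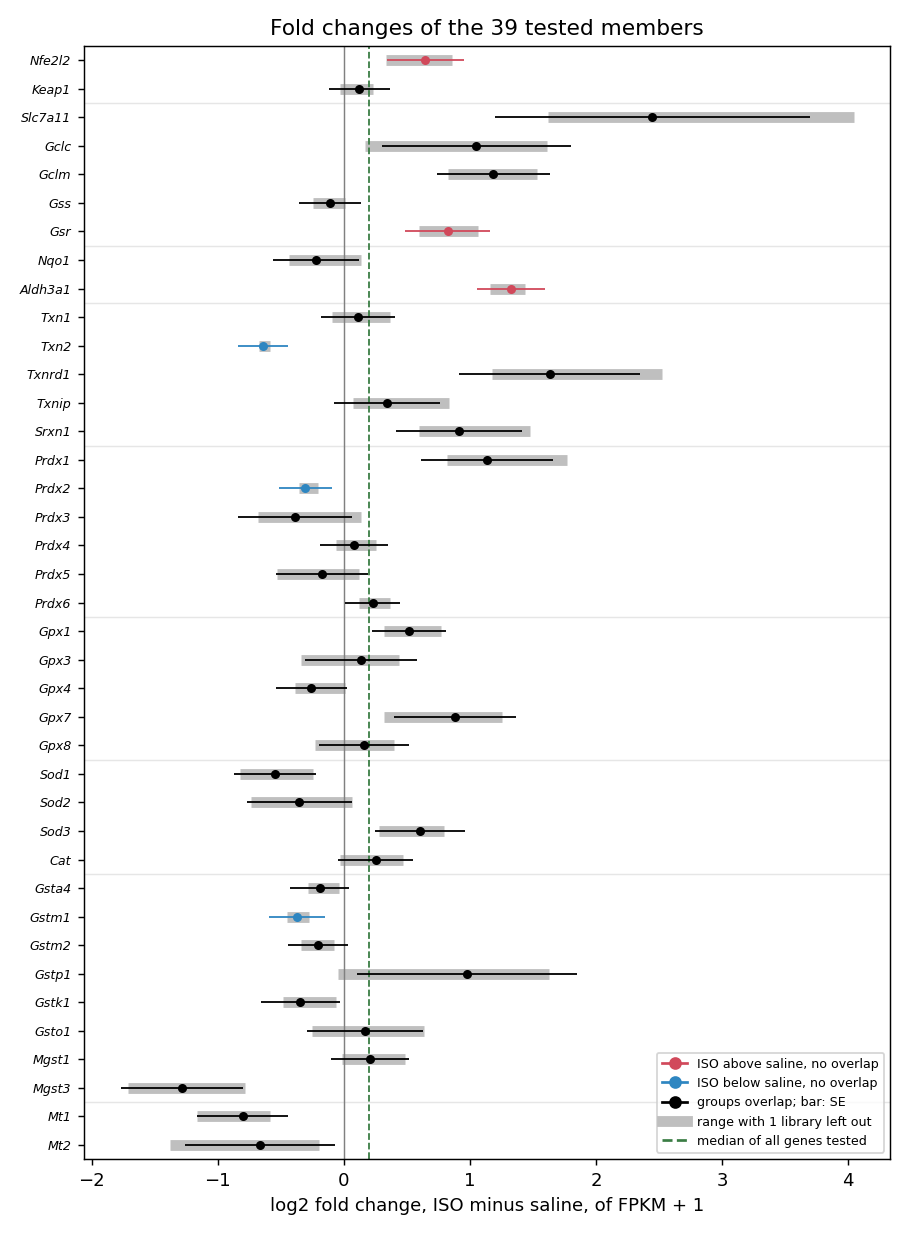
Points give the log2 fold change, ISO minus saline, of log2(FPKM + 1) for the 39 tested members with the SE as a bar; grey bands span the values with 1 library left out and the dashed line is the median of all genes, 0.20. Bands are widest for Slc7a11, Gstp1 and Gclc, and Txn2 and Aldh3a1 keep narrow bands on opposite sides of 0.

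A further 97 genes of the redox system were listed by function, and 96 were found in the table, 8 of them selenoprotein genes under older symbols. Of the 85 tested, limma called 0 at an adjusted p under 0.05. At an unadjusted p under 0.05, 12 of the 85 were higher and 2 lower, against 4.92% and 1.39% of all genes. Every ISO library lay above every saline library for 14 (16.5% against 12.8% of all genes) and below for 4 (4.71% against 3.72%). The median log2 fold change was 0.15, beside 0.20 over all genes.

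Genes that produce superoxide and hydrogen peroxide were mostly higher in ISO. Of 12 listed, 9 were tested, and 8 had a fold change above 0, against 68.1% of all genes. For 7 every ISO library lay above every saline library, against 12.8% of all genes, and the median log2 fold change was 0.91. Cybb, the catalytic subunit of the phagocyte NADPH oxidase, was at 7.87, 62.1 and 72.1 FPKM in ISO 1 to 3, against 5.59, 2.84 and 1.12 FPKM in saline 1 to 3. The groups did not overlap, but ISO 2 and ISO 3 were 11.1 and 12.9 times the highest saline library and ISO 1 was 1.41 times it. With limma, the log2 difference of 3.19 (SE 0.84) had an adjusted p = 0.699. Ncf1, the p47phox organizer of the same oxidase, was at 14.0, 24.8 and 19.1 FPKM in ISO 1 to 3, against 6.28, 10.4 and 9.10 FPKM in saline 1 to 3, with no overlap and a log2 fold change of 1.07 (SE 0.30). Macrophages carry this oxidase, and their 8 markers, summed above, all had a fold change above 0, with a median of 1.13 on the log2 scale. Lyz2, the most abundant of them, was at 465, 1139 and 1059 FPKM in ISO 1 to 3, against 188, 301 and 322 FPKM in saline 1 to 3. Their part in the oxidase values was not tested.

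**Figure D5:**
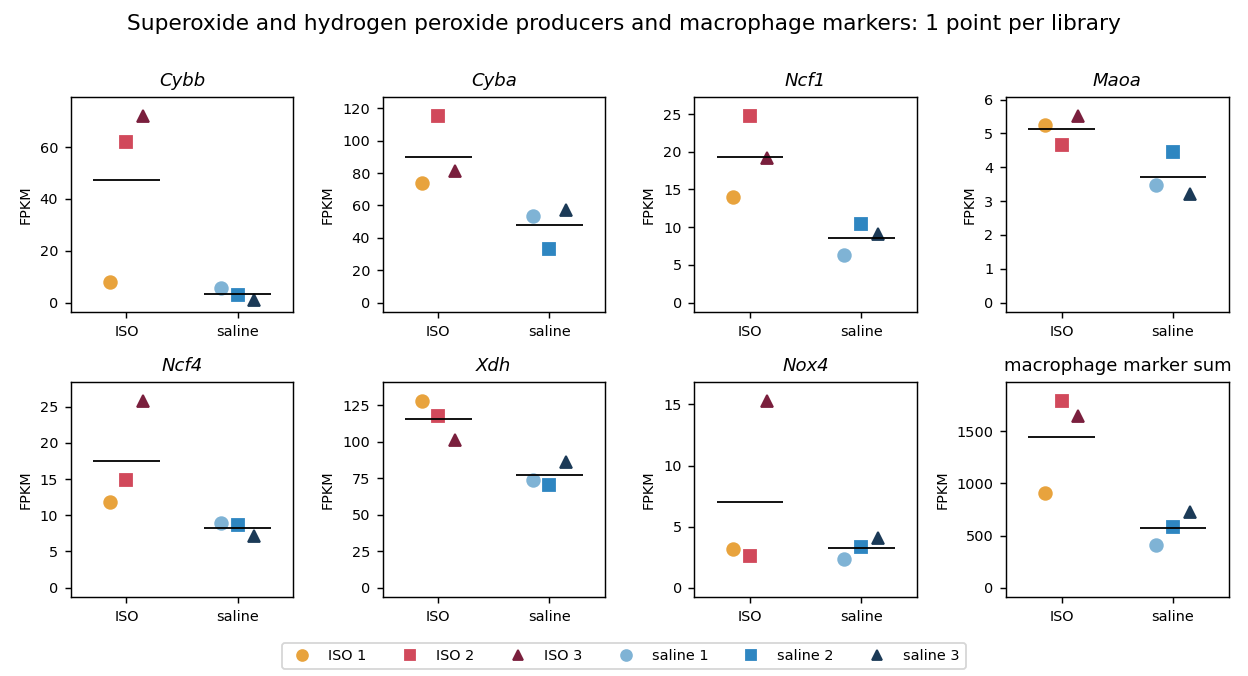
Each panel gives FPKM on a linear axis, with 1 point per library, ISO at the left and saline at the right, and a line at the group mean; the last panel sums the 8 macrophage markers. Cybb is at 62.1 and 72.1 FPKM in ISO 2 and ISO 3, and the summed macrophage markers are at 1792 and 1644 FPKM there, against 911 FPKM in ISO 1.

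Other NRF2 targets had 16 of 19 genes above 0, against 68.1% of all genes, with a median log2 fold change of 0.35. Every ISO library lay above every saline library for 2 of the 19 (Pgd and Abcc1), 10.5%, against 12.8% of all genes. Hmox1, heme oxygenase, which breaks down heme and is a classic NRF2 target, was at 17.1, 649.7 and 667 FPKM in ISO 1 to 3, against 38.3, 30.1 and 88.2 FPKM in saline 1 to 3. The reads were 199, 5278 and 5901 reads in ISO 1 to 3, against 595, 299 and 386 reads in saline 1 to 3. ISO 1 was the lowest of the 6 libraries and ISO 2 and ISO 3 were 7.36 and 7.56 times the highest saline library, the layout seen for Slc7a11. Hmox1 had a log2 fold change of 2.06 (SE 1.35), 3.79 without ISO 1 and 1.20 without ISO 2. Sqstm1, the autophagy receptor p62 that competes with NRF2 for KEAP1, was also highest in ISO 2 and ISO 3, with ISO 1 within the saline range, at 182, 683 and 692 FPKM in ISO 1 to 3, against 190.5, 131 and 185 FPKM in saline 1 to 3. Slc3a2, the heavy chain that pairs with Slc7a11 in the transporter, was at 11.5, 28.1 and 35.4 FPKM in ISO 1 to 3, against 17.3, 16.4 and 11.0 FPKM in saline 1 to 3. Sqstm1 and Slc3a2 were named after their values were seen. The macrophage marker sum, given above, was also higher in ISO 2 and ISO 3 than in ISO 1, and its part in these values was not tested.

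Pgd, an enzyme of the pentose phosphate pathway that makes NADPH, was at 6.68, 9.48 and 10.2 FPKM in ISO 1 to 3, against 2.44, 4.91 and 3.34 FPKM in saline 1 to 3, a log2 fold change of 1.12 (SE 0.30) with every ISO library above saline. Sesn2, sestrin 2, a stress-induced protein that limits growth signalling, had the smallest p of the wider list. It was at 3.01, 2.70 and 3.42 FPKM in ISO 1 to 3, against 1.26, 0.716 and 0.271 FPKM in saline 1 to 3, with no overlap and a log2 fold change of 1.24 (SE 0.32). The reads were few, 59, 37 and 51 reads in ISO 1 to 3, against 33, 12 and 2 reads in saline 1 to 3. The list of NRF2 partners and related factors had 8 of 8 tested above 0, against 68.1% of all genes. It is a mixed list that also holds Cul3, Rbx1, Bach1 and Nfe2l1, the last with a log2 fold change of 0.0061. Mafk, a small MAF protein, was the single one without overlap, higher in every ISO library. That is 12.5% of those tested, against 12.8% of all genes.

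The wider glutathione enzymes had 11 of 25 tested above 0 and 14 below, against 68.1% of all genes above 0, with a median of -0.0087 beside 0.20 over all genes. Gstm7, another mu class transferase, was at 12.7, 11.8 and 5.80 FPKM in ISO 1 to 3, against 15.9, 14.8 and 27.4 FPKM in saline 1 to 3 and Ggct, which degrades gamma-glutamyl dipeptides, at 13.6, 13.9 and 14.3 FPKM in ISO 1 to 3, against 16.9, 19.1 and 17.8 FPKM in saline 1 to 3, both lower in every ISO library. Gstm6 was at 1.83, 3.40 and 3.12 FPKM in ISO 1 to 3, against 6.02, 2.46 and 9.72 FPKM in saline 1 to 3, with overlapping groups. Ucp3, an uncoupling protein of muscle mitochondria, was at 19.9, 17.4 and 14.0 FPKM in ISO 1 to 3, against 49.0, 26.9 and 22.7 FPKM in saline 1 to 3, a log2 fold change of -0.84 (SE 0.33) with no overlap. Park7, which encodes the redox sensor DJ-1, was at 33.4, 45.0 and 33.3 FPKM in ISO 1 to 3, against 44.4, 49.0 and 79.2 FPKM in saline 1 to 3, with overlapping groups.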

How the data were processed

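Polyadenylated RNA of left ventricles was sequenced in 3 ISO and 3 saline libraries, grouped by their treatment labels. The deposited values are FPKM per gene symbol, made by the authors. Named in the submitters' processing notes, with no role or order, are HISAT2 2.1.0, HTSeq 0.7.2, Cufflinks 2.2.1, fastp 0.20.0, CASAVA 1.8, DESeq and the build GRCm38; annotation and strand setting are not given in the sources used here. Reads were recovered from the FPKM steps for 16812 of the 16816 genes with 2 or more libraries above 0 (tolerance 0.0001), and 95% exact Poisson intervals were put on them. The test was limma 3.58.1 (R 4.3.3) with a mean-variance trend and 1 term, the group, on log2(FPKM + 1). It took the 12269 genes whose mean was at least 1 FPKM, and p was adjusted over all of them by Benjamini and Hochberg, with a threshold of 0.05. This scale understates changes of low genes. Both steps were tested on simulated data. Alternatives were other pseudocounts, filters and scalings, quality weights, a replicate block, limma-voom on the recovered reads and each library left out. Members and lists were chosen with earlier results of these data known. Values in all libraries are given for members with separated groups or an unadjusted p under 0.05 and for a set of genes that stands for each role, and for the wider list for the 5 smallest p in each direction, 1 of which is not reported here, and Hmox1. Values of further members (Prdx1 among them), other genes of the wider list and the examples of marker lists were added after they were seen. Positions and promoter windows are RefSeq on GRCm38.p6. Python 3.11.15, numpy 2.4.6, pandas 2.3.3, scipy 1.17.1 and matplotlib 3.10.9 were used.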

Additional observations from a re-analysis of the deposited data

How the results depend on the processing

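Weighting libraries by quality (lowest weight 0.0772, saline 3; highest 5.50, ISO 2) led to calls for 768 genes (521 higher and 247 lower, 6.26%), 5 members (Aldh3a1 and Gpx1 higher; Txn2, Mgst3 and Mt1 lower) and 11 genes of the wider list. Otherwise 0 members and 0 genes of the wider list were called under every alternative run, and over all genes leaving out 1 library called 0 to 16 (16 without ISO 1). Leaving out 1 library gave 4 to 8 members higher in every ISO library, beside 2147 to 2785 of the 12269 genes tested. It gave 3 to 8 members lower, beside 549 to 1179 genes. Fewer libraries overlap less by construction. Median-of-ratios scaling divided each library by its size factor, 0.787 for saline 3 and 1.02 to 1.14 for the other libraries. Saline 3 was thereby raised against the ISO libraries for all genes. The median over members went from 0.13 to -0.080, and that of all genes from 0.20 to 0.021. There were 6 lower members, where 7.29% of all genes were lower. This scaling turned Keap1 (-0.080), Txn1 (-0.10), Prdx4 (-0.12), Gpx3 (-0.080), Gpx8 (-0.051), Gsto1 (-0.044) and Mgst1 (-0.0044). Quantile normalization turned Keap1 (-0.056), Prdx4 (-0.087) and Prdx5 (0.069). Quality weights turned Gclc (-0.051), Nqo1 (0.048), Txnip (-0.36), Prdx3 (0.30), Prdx5 (0.075), Gpx3 (-0.36), Gpx4 (0.013), Gpx8 (-0.34), Gstp1 (-0.11) and Mgst1 (-0.18). With 1 library left out the log2 fold change ran from -0.031 to 0.23 for Keap1, -0.24 to 0.012 for Gss, -0.43 to 0.13 for Nqo1, -0.098 to 0.37 for Txn1, -0.68 to 0.14 for Prdx3, -0.061 to 0.25 for Prdx4, -0.53 to 0.12 for Prdx5, -0.34 to 0.43 for Gpx3, -0.39 to 0.0074 for Gpx4, -0.23 to 0.39 for Gpx8, -0.74 to 0.066 for Sod2, -0.030 to 0.47 for Cat, -0.045 to 1.62 for Gstp1, -0.25 to 0.63 for Gsto1 and -0.017 to 0.49 for Mgst1. Of 50 genes followed, 33 never changed sign. Over all genes tested, libraries that share a replicate number did not deviate together (r 0.013, -0.15 and -0.025). With 3 libraries per group, these r values cannot show whether same-numbered libraries share a batch. The airway and alveolar marker sums, given below, were highest in ISO 3 and saline 3. With a replicate block 0 genes and 0 members were called. Among others, depth limits Aldh3a1, Gclc, Gstp1, Gclm and Gpx7 in saline 3, at 12, 11, 14, 15 and 21 reads. Of the wider list it limits Cybb and Sesn2 there, at 15 and 2 reads.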

Other observations

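Sepp1, the secreted selenium carrier selenoprotein P, was at 232, 253 and 286 FPKM in ISO 1 to 3, against 182, 147 and 116 FPKM in saline 1 to 3, higher in every ISO library, with a log2 fold change of 0.81 (SE 0.25). Selt, a selenoprotein of the endoplasmic reticulum, was at 29.9, 28.2 and 23.7 FPKM in ISO 1 to 3, against 21.3, 22.6 and 23.0 FPKM in saline 1 to 3, with no overlap and a log2 fold change of 0.27 (SE 0.21). Of the 12 genes in the list of selenoproteins and methionine sulfoxide reductases, 6 had a fold change above 0 and 6 below, against 68.1% of all genes above 0. Msrb1, a methionine sulfoxide reductase, was at 264 FPKM in saline 3 and between 57.3 and 97.9 FPKM elsewhere. These genes were named after their values were seen.

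Iron storage genes, also NRF2 targets, overlapped between groups. Ftl1, the ferritin light chain, was at 1719, 2459.6 and 2910.4 FPKM in ISO 1 to 3, against 1215, 1858 and 2613 FPKM in saline 1 to 3, and Fth1, the heavy chain, at 1715, 2916 and 2806 FPKM in ISO 1 to 3, against 1423, 1591 and 2676 FPKM in saline 1 to 3. Markers of airway and liver were not spread evenly over libraries. The 8 airway and alveolar markers summed to 2.11, 3.87 and 208 FPKM in ISO 1 to 3, against 9.42, 14.7 and 229 FPKM in saline 1 to 3, and the 6 hepatocyte markers to 41.0, 45.8 and 227 FPKM in ISO 1 to 3, against 113, 80.8 and 748 FPKM in saline 1 to 3. Saline 3 and ISO 3 were the highest in the first list and saline 3 in the second. Scgb1a1 made most of the first sum there, at 182 FPKM in ISO 3 and 201 FPKM in saline 3. In that list 6 of the 8 markers were at 0 in at least 1 library. Cyp2e1 made most of the second sum in ISO 3, at 204 FPKM, and was lowest in saline 3, at 31.1 FPKM. Alb, Apoa1, Ttr, Serpina1a and Fgb were highest in saline 3.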
